A study of Mus musculus with 9 samples.

Results

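Type I interferon response genes are the genes that cells switch on when interferon alpha or beta reaches them. A list of 41 such genes was matched by gene name to the 55536 genes of the deposited count table, and each of the 41 was found exactly once. Of these, 37 are also in the deposited table of log2 values, and the 4 that are not are Ifit3b, Oas1g, Rsad2 and Ifi44. The libraries hold RNA of mouse spleen B cells labelled pre-GC, a name for B cells before the germinal centre reaction in which they divide and mutate their antibody genes. There are 4 libraries of genotype WT and 5 of genotype p52Ki, whose titles read p52ki/ki, the usual notation for a change knocked into both alleles. The series title joins p52, a subunit of NF-kB made from Nfkb2, to the transcription factor ETS1 in germinal centre formation. Strain, age, sex and immunisation of the mice, the sort of the cells and the way the allele was made are not in the labels used here. Whether each library is a mouse of its own is not stated, so a p-value here speaks of the scatter among libraries, which may be technical. Values by library are listed throughout in replicate order, 1 to 4 for WT and 1 to 5 for p52Ki. Nfkb2 itself was counted in both genotypes, with means of 136 CPM in WT and 208 CPM in p52Ki (log2 fold change 0.61 ± 0.21, edgeR adjusted p = 0.0987), a level that does not check a knock-in label.

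As background, interferon alpha and beta bind a receptor made of IFNAR1 and IFNAR2, which activates the kinases JAK1 and TYK2. Signalling then brings STAT2 and IRF9 together in a complex named ISGF3, which binds a short DNA element upstream of the response genes. The products slow viral replication, sense foreign nucleic acid and feed back on the pathway itself. In B cells the pathway can also lower the threshold for activation and shape entry into the germinal centre and antibody secretion.

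Among the 37 genes tested, 12 were higher in p52Ki and 0 were lower (edgeR quasi-likelihood test, Benjamini-Hochberg adjusted p under 0.05). Over all 12849 genes tested, 4.49% were called higher and 4.04% lower. The 12 are the sensors Ddx58, Dhx58 and Zbp1, the antiviral effectors Mx1, Bst2, Cmpk2, Trim30a and Samd9l, the nuclear body gene Sp100, and Ifit1, Oasl1 and Xaf1. Of the 37, 34 had a fold change above 0. The median of the 37 log2 fold changes was 1.38, and that of all genes tested 0.03. At an unadjusted p under 0.05, 22 were higher and 0 lower, beside 10.8% higher and 10.6% lower of all genes. DESeq2 called 0 of the 41 lower, and limma 0 of the 37 in its fits. DESeq2 called 19 of the 41 higher (7.82% of all genes it tested), adding Ifi27, Ifi44, Ifit3b, Irf9, Rsad2, Rtp4 and Usp18 to the 12. Limma-trend, run on the log2 table, called 21 of the 37 higher (6.23% of all genes it tested). Other fits called fewer. With a replicate block on numbers 1 to 4, whose meaning the labels do not give, edgeR called 1 of the 37 higher (Oasl1). That fit called 84 of 12523 genes higher. Without p52Ki replicate 1, edgeR called 9 of the 37 higher, beside 344 of 12533 genes. In CPM, the counts scaled to a common library size, every p52Ki library lay above every WT library for 19 of the 41 genes and below for 0. Of the 37 tested, 18 were apart in this way, against 7.3% of all genes tested that lay wholly higher in p52Ki and 6.53% wholly lower.

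A gene enters the test when enough libraries reach a minimum level, here 1.504 CPM, so a gene that is low in WT can enter through p52Ki alone. All 4 WT libraries reached that level for 24 of the 37 genes, and no WT library did for Ifit1 and Mx1. Among those 24, 9 were higher and 0 lower, with a median log2 fold change of 0.86. No share was computed over all genes with every WT library at that level, so 9 of 24 has no like set beside it. The share of calls also varies with level. Among genes with a mean log2 CPM under 3, 2 of 9 interferon response genes were higher, beside 3.22% of all genes. From 3 to 5 the numbers were 5 of 13 and 3.79%, and at 5 or above they were 5 of 15 and 5.77%. The median log2 fold change of all genes fell over these ranges from 0.34 to 0.09 and to -0.09, and that of the interferon response genes was 2.63, 1.78 and 0.73.

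**Figure D1:**
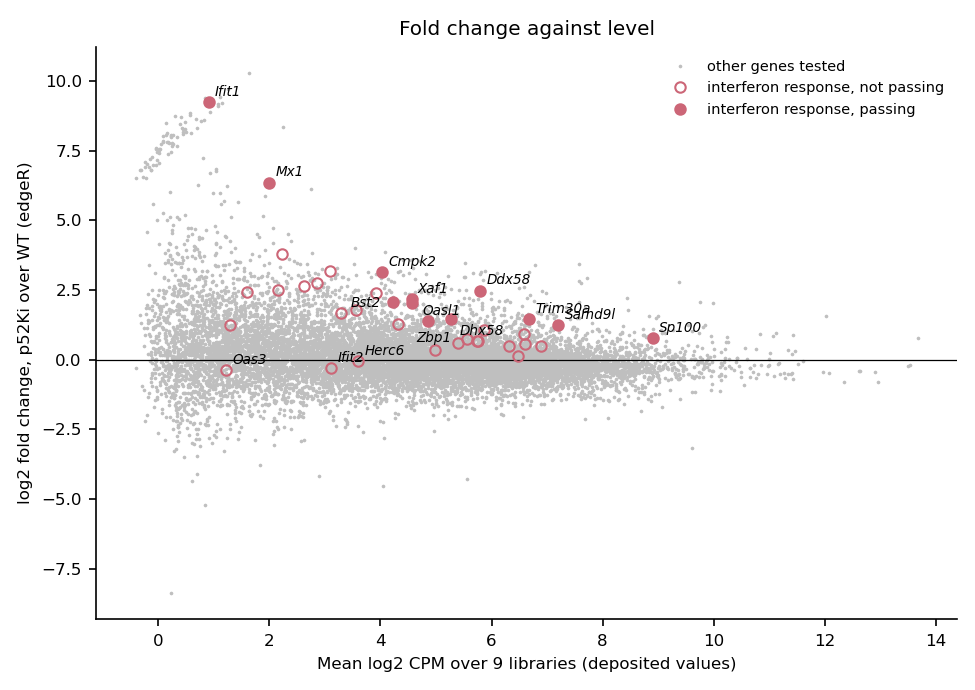
Log2 fold change of p52Ki over WT (vertical axis) against mean log2 CPM over the 9 libraries (horizontal axis), with 1 point per gene tested. Filled circles are the 12 interferon response genes that passed the test, open circles the 25 that did not, and grey points the other genes. Most circles lie above 0 and spread widely at low levels, and the fold drawn for Ifit1, with 0 counts in WT, depends on the small count that the fit adds.

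Several features of the libraries differ with genotype, and their part in these results was not tested. WT libraries held 7368604 to 7937579 counts, those of p52Ki 4492160 to 6647650. Genes with at least 1 count nonetheless numbered 14033 to 14793 per WT library, against 15504 to 16634 per p52Ki library (exact two-sided permutation p = 0.0159, n = 4 and 5), or 13701 to 14497 against 15399 to 16349 after thinning to equal depth (exact p = 0.0159). The 6 B cell markers summed to 9689 to 10927 CPM in WT and 11010 to 14480 CPM in p52Ki. The 9 macrophage and monocyte markers summed to 51.2 to 171 CPM and 105 to 239 CPM. Of these, Itgam and Cd14 were at 0 in WT and reached at most 1.94 and 7.11 CPM in a p52Ki library. Lyz2 was wholly higher in p52Ki (3.55 to 11.7 CPM in WT, 13.0 to 65.0 CPM in p52Ki), while C1qb was at 0, 21.2, 24.2 and 27.3 CPM in WT and 13.1 to 18.0 CPM in p52Ki. The 7 markers of plasmacytoid dendritic cells, the cells best known for making type I interferon, summed to 43.2 to 59.2 and 29.2 to 55.2 CPM, mostly Pacsin1. Siglech, their defining receptor, had 0 counts in the 4 WT libraries and p52Ki replicates 1 to 3, against 5.06 and 6.52 CPM in p52Ki replicates 4 and 5. The 7 T cell markers summed to 188 to 256 and 76.9 to 201 CPM, mostly Lck, with Cd8a at 0 in WT. The 5 conventional dendritic cell markers summed to 45.2 to 67.7 and 13.2 to 36.5 CPM, mostly Flt3, with Clec9a and Itgax at 0 in WT and Xcr1 at 0 in p52Ki. NK cell markers summed to at most 10.2 and 20.5 CPM, with Klrb1c at 0 in WT, and neutrophil markers to at most 3.32 and 0 CPM, with S100a8, S100a9 and Retnlg at 0 in all 9 libraries. The 7 germinal centre genes summed to 3736 to 5086 CPM in WT and 906 to 2496 CPM in p52Ki, and the 6 follicular genes to 592 to 819 and 1307 to 1942 CPM. In bulk RNA, fewer cells with a transcript and less of it per cell cannot be told apart.

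More of the 41 genes were detected in p52Ki, although its libraries held fewer counts. WT replicates 1 to 4 held at least 1 count of 28, 34, 33 and 31 of the genes, and p52Ki replicates 1 to 5 of 40, 40, 40, 41 and 41. Thinning each library to 4492160 counts left these numbers as they were. With at least 5 counts required, the numbers were 27, 31, 33 and 31 in WT and 40, 39, 40, 41 and 39 in p52Ki. In all, 26 genes were counted in every WT library, 12 in some and 3 (Ifit1, Rsad2 and Ifi44) in none, and 38 were counted in every p52Ki library. The mean log2 CPM of the 37 tested genes was 2.86, 3.495, 3.66 and 3.39 in the WT libraries and 5.49, 5.28, 4.92, 5.23 and 5.58 in the p52Ki libraries. Over all genes tested the same mean was 4.20 to 4.36 in WT libraries, against 4.47 to 4.57 in those of p52Ki. The mean of the 37 was thus under that of all genes in each WT library and over it in each p52Ki library, but 13 of the 37 were under the filter level in at least 1 WT library. For the 24 at that level in every WT library the mean was 4.615, 5.07, 5.15 and 4.94 in WT and 6.15, 5.97, 5.84, 5.92 and 6.15 in p52Ki, over that of all genes in all 9 libraries. The set of all genes was not limited in the same way.

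**Figure D2:**
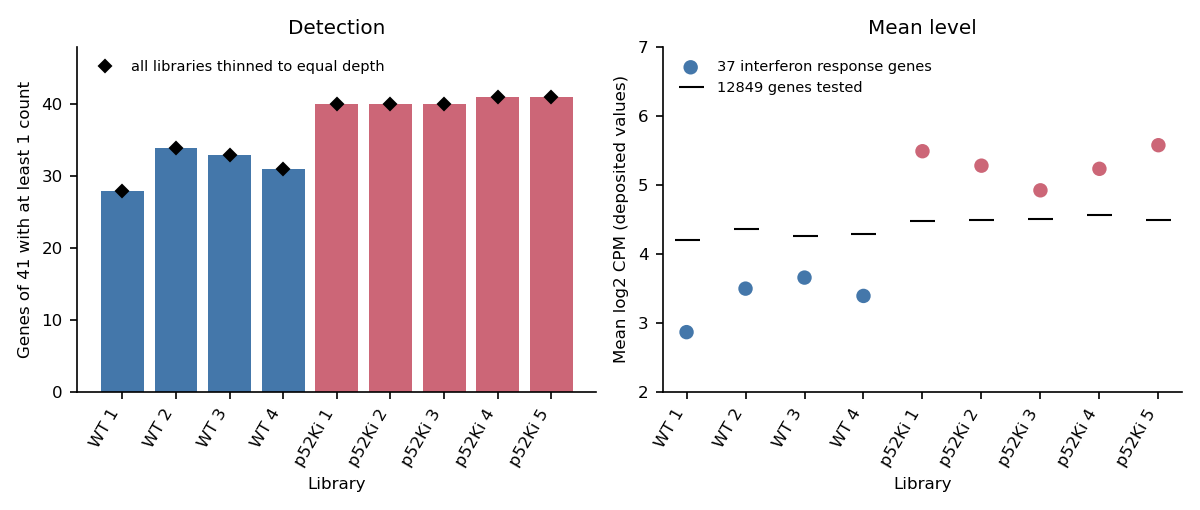
Left, genes of the 41 with at least 1 count in each library (bars), with diamonds after thinning to equal depth. Right, mean log2 CPM of the 37 interferon response genes tested (circles) and of all 12849 genes tested (dashes). WT libraries are blue and p52Ki libraries red, and the circles lie between 2.86 and 3.66 in WT and between 4.92 and 5.58 in p52Ki.

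Levels of different genes were compared in CPM per kilobase of exon. In WT the highest were Ifi35 at 57.5 ± 15.7 and Sp100 at 47.5 ± 6.12 (SD, n = 4), which did not differ beyond their spread. Ifi27 followed at 27.5 ± 10.2, and Irf1, Samd9l, Isg20, Trim30a, Stat2, Irf9, Trim25 and Irf7 came next, from 20.6 down to 11.5, with neighbours within their spread. Irf7 and Bst2, at 9.88 ± 5.54, also overlapped. At the low end, Mx1, Ifit3b, Ifit1, Rsad2 and Ifi44 were at or under 0.0731 CPM per kilobase. In p52Ki the highest were Sp100 at 82.0 ± 16.9 and Ifi35 at 80.0 ± 5.26 (SD, n = 5). Bst2 moved from rank 12 of 41 to rank 5, Ddx58 from 19 to 11 and Oas1a from 24 to 13, while Stat2 moved from 8 to 16.

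**Figure D3:**
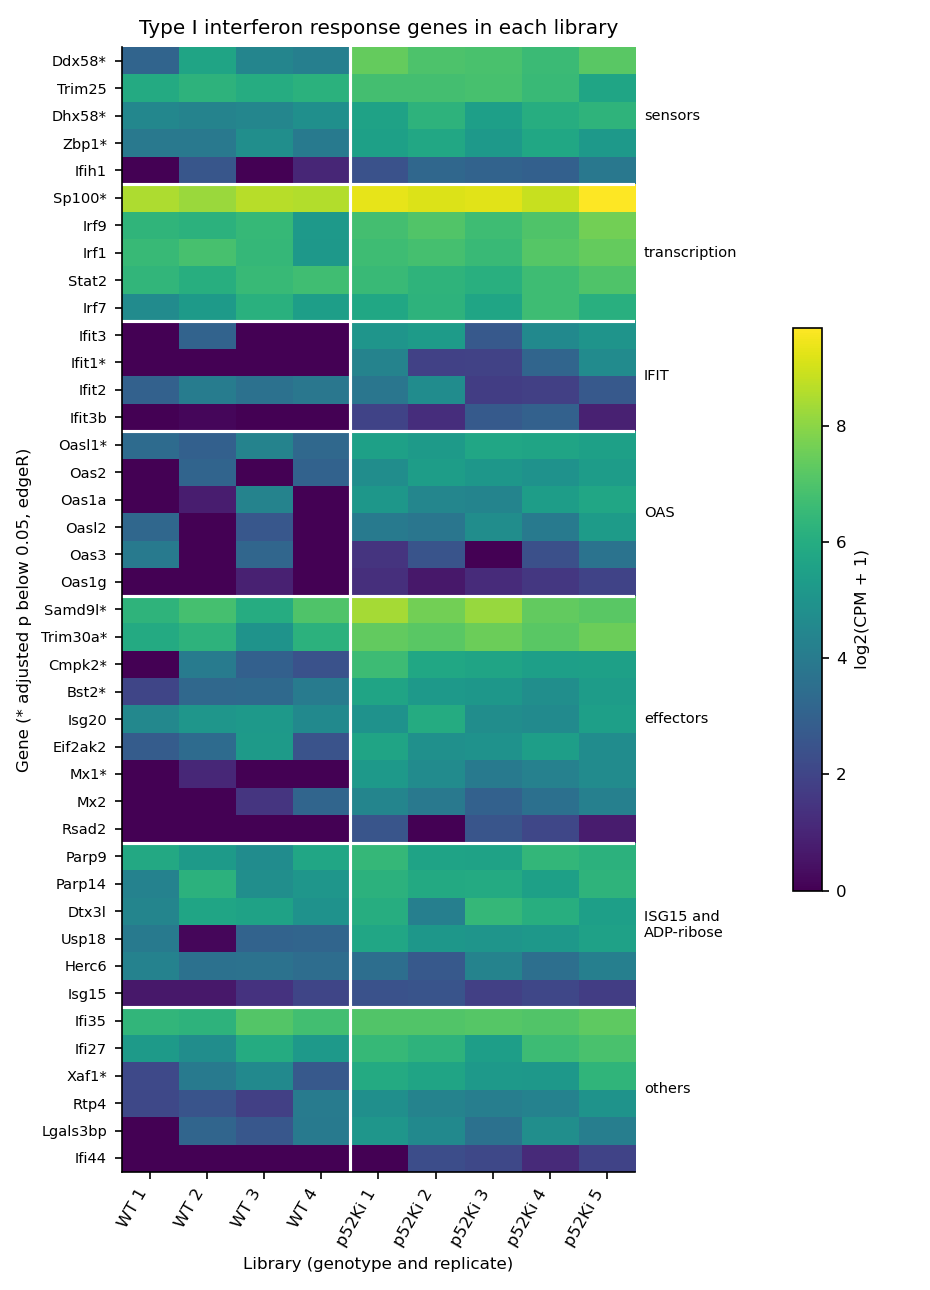
Level of each of the 41 genes (rows, grouped by role) in each of the 9 libraries (columns) as log2(CPM + 1), from dark (0) to light (highest). Stars mark the 12 genes that passed the test. Dark cells are scattered over different genes in the 4 WT libraries, while only Ifi44 in replicate 1, Rsad2 in replicate 2 and Oas3 in replicate 3 are at 0 in p52Ki.

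The sensors of foreign nucleic acid held 3 of the 12 higher genes, and 5 of 5 were tested. Ddx58 (chromosome 4, 40203773 to 40239828), which encodes RIG-I, the sensor of short double-stranded RNA with a triphosphate end, gave 7.74, 49.0, 20.0 and 17.1 CPM in order of replicate for WT, compared with 169, 125, 119, 95.8 and 145 CPM for p52Ki. The lowest p52Ki library was above the highest WT library, WT replicate 2. Its mean was 23.5 ± 17.8 CPM in WT (SD, n = 4) but 130.4 ± 27.5 CPM in p52Ki (SD, n = 5). The log2 fold change was 2.47 ± 0.44 (SE, edgeR adjusted p = 0.00701), and 3.12 without WT replicate 2. Dhx58 (chromosome 11, 100694884 to 100704271), for LGP2, the regulator of RIG-I and MDA5, was counted at 21.4, 19.2, 20.9 and 27.5 CPM in WT, where p52Ki had 46.7, 76.2, 42.6, 64.2 and 77.6 CPM. WT was narrow and the p52Ki libraries all lay above it, with a log2 fold change of 1.46 ± 0.27 (edgeR adjusted p = 0.00783). Zbp1 (chromosome 2, 173206612 to 173218923), a sensor of Z-form nucleic acid that can start cell death, gave 14.0, 14.1, 26.4 and 14.9 CPM in order of replicate for WT, compared with 44.4, 55.0, 36.0, 54.1 and 36.3 CPM for p52Ki. Its WT replicate 3 was the highest WT library and still lay under every p52Ki library (log2 fold change 1.38 ± 0.30, edgeR adjusted p = 0.0169). Ifih1, which encodes MDA5, the sensor of long double-stranded RNA, gave 0, 4.98, 0 and 1.06 CPM in order of replicate for WT, compared with 4.36, 8.47, 7.43, 6.74 and 13.7 CPM for p52Ki. It was absent from a pair of WT libraries and overlapped in the rest, at a log2 fold change of 2.41 ± 1.25 that did not pass (edgeR adjusted p = 0.298). Trim25, a ubiquitin ligase that acts on RIG-I, was counted at 60.1, 74.8, 62.8 and 71.3 CPM in WT, where p52Ki had 108, 110.4, 114, 93.6 and 50.2 CPM. Here p52Ki replicates 1 to 4 were above every WT library and replicate 5 was below them all. The log2 fold change, 0.50 ± 0.24, missed the threshold (edgeR adjusted p = 0.25). The gene passed without p52Ki replicate 5 (0.69, edgeR adjusted p = 0.0413, and 0.0413 to 0.403 over its alternatives, of which 1 of 19 passed).

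Among the transcription regulators only Sp100 passed. Sp100 (chromosome 1, 85649988 to 85709998), a component of PML nuclear bodies and the most counted of the 41 genes, gave 363, 294, 403 and 376 CPM in order of replicate for WT, compared with 633, 575, 600.4, 469 and 819.5 CPM for p52Ki. The genotypes did not overlap, and the log2 fold change was 0.79 ± 0.17 (edgeR adjusted p = 0.0152). Irf9, the DNA-binding part of ISGF3, gave 80.5, 73.5, 88.0 and 36.0 CPM in order of replicate for WT, compared with 109, 131, 100, 128 and 195 CPM for p52Ki. The p52Ki libraries were all above the WT libraries, of which replicate 4 was far the lowest, and the log2 fold change, 0.93 ± 0.28, missed the threshold (edgeR adjusted p = 0.0622). It passed with DESeq2 (adjusted p = 0.0116, and 0.0116 to 0.199 over its alternatives, of which 3 of 19 passed). Stat2, its partner, was at 86.1 ± 15.9 and 93.7 ± 22.7 CPM with full overlap (log2 fold change 0.12 ± 0.22, edgeR adjusted p = 0.824). Irf7, which drives the amplification of interferon alpha genes, was at 43.6 ± 19.0 and 69.7 ± 20.5 CPM, and Irf1, a factor also induced by interferon gamma, at 82.0 ± 34.1 and 123 ± 29.9 CPM. The genotypes overlapped for either gene, and neither passed (log2 fold changes 0.68 and 0.58, edgeR adjusted p = 0.244 and 0.311). Over the 5 regulators the median log2 fold change was 0.68.

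The 4 Ifit genes, whose products bind viral RNA and block its translation, lie together on chromosome 19 between 34550694 and 34650009. Of the 3 tested, 1 was higher. Ifit1 (chromosome 19, 34640871 to 34650009) had 0 counts in the 4 WT libraries but 19.0, 2.65, 2.75, 7.81 and 24.6 CPM across those of p52Ki. Its p52Ki mean of 11.4 ± 9.94 CPM was 111-fold over a floor of 3 counts in the summed WT libraries (0.102 CPM). That ratio leaves out the scatter among libraries. The test passed (edgeR adjusted p = 0.00845). Ifit3 measured 0, 7.47, 0 and 0 CPM across the WT libraries, against 32.1, 38.4, 5.49, 23.1 and 30.9 CPM across those of p52Ki. WT replicate 2 alone held Ifit3, above p52Ki replicate 3, and the log2 fold change, 3.79 ± 1.35, missed the threshold (edgeR adjusted p = 0.116). Without that WT library the other 3 were at 0 and the call was made (edgeR adjusted p = 0.0047, and 0.0047 to 0.208 over its alternatives, of which 2 of 19 passed). Its close copy Ifit3b, which fell under the edgeR filter, had 1 count in WT and 113 in p52Ki, a ratio in depth-scaled counts of 111 with an exact 95% interval from 19.6 to 4432 that covers counting error only. Of the 100-base stretches in Ifit3 transcripts, 31.7% also occur in Ifit3b, so reads of this pair may be divided between them. Ifit2 was counted at 7.09, 15.8, 11.2 and 13.4 CPM in WT, where p52Ki had 12.8, 25.04, 2.42, 2.60 and 5.43 CPM. It was 1 of 3 genes with a fold change under 0 (-0.30 ± 0.69, edgeR adjusted p = 0.874), and p52Ki replicates 1 and 2 were higher than replicates 3 to 5. The p52Ki libraries with most Ifit1 (5 and 1) and those with most Ifit2 (2 and 1) were not the same.

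The oligoadenylate synthetases make a messenger that activates the RNA-cutting enzyme RNase L. Oas1a, Oas1g, Oas2 and Oas3 lie on chromosome 5 between 120730333 and 120907521, and the related Oasl1 and Oasl2 elsewhere on it. Only Oasl1 passed. Oasl1 (chromosome 5, 114923240 to 114937915), which in mice represses translation of Irf7 mRNA, gave 9.32, 6.78, 19.3 and 8.76 CPM in order of replicate for WT, compared with 44.4, 37.4, 51.4, 48.9 and 44.3 CPM for p52Ki. It was even within p52Ki and 19.3 CPM at most in WT (log2 fold change 2.03 ± 0.35, edgeR adjusted p = 0.0061). Oas1a was counted at 0, 0.692, 19.3 and 0 CPM in WT, where p52Ki had 33.5, 21.0, 19.4, 41.1 and 51.5 CPM. Most of the WT counts were in replicate 3, which almost reached the lowest p52Ki library, and the log2 fold change, 2.73 ± 1.25, missed the threshold (edgeR adjusted p = 0.233). The gene passed without that library (edgeR adjusted p = 0.00566, and 0.00566 to 0.351 over its alternatives, of which 3 of 19 passed). Oas2 was at 0, 7.61, 0 and 7.17 CPM in the WT libraries and 25.8, 41.1, 33.6, 29.7 and 39.8 CPM in the p52Ki libraries. Oasl2 was at 8.4, 0, 5.26 and 0 CPM and 14.7, 12.9, 25.7, 14.6 and 38.9 CPM. For both genes the genotypes did not overlap, with 0 in a pair of WT libraries each, yet neither passed (log2 fold changes 3.19 and 2.63, edgeR adjusted p = 0.0882 and 0.203). Oas3 overlapped fully, at 14.7, 0, 8.25 and 0 CPM in WT and 1.74, 4.76, 0, 4.14 and 11.7 CPM in p52Ki (log2 fold change -0.36 ± 1.52, edgeR adjusted p = 0.933), and its sign turned without WT replicate 1. Oas1g, with 6 counts in WT and 47 in p52Ki, fell under the edgeR filter. It shares 31.3% of its 100-base stretches with Oas1a, so these values may be divided between the copies.

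The antiviral effectors held 5 of the higher genes among 8 tested. Mx1 (chromosome 16, 97447035 to 97462907), a GTPase that blocks influenza-like viruses, measured 0, 1.11, 0 and 0 CPM across the WT libraries, against 37.02, 24.7, 14.9, 18.2 and 24.3 CPM across those of p52Ki. Its 8 WT counts were all in replicate 2, and the log2 fold change was 6.35 ± 1.06 (edgeR adjusted p = 0.0056). Without that library WT was at 0 counts and the fitted value of 10.28 depends on the small count that the fit adds. Leaving out any other library gave 5.94 to 6.49. Mx2, which the annotation lists as a polymorphic pseudogene, gave 0, 0, 1.85 and 7.83 CPM in order of replicate for WT, compared with 20.0, 13.9, 6.94, 10.9 and 17.8 CPM for p52Ki. WT replicate 4 reached above the lowest p52Ki library and the gene did not pass (log2 fold change 2.51 ± 1.20, edgeR adjusted p = 0.253). Bst2 (chromosome 8, 71534255 to 71537456), or tetherin, which holds budding virus at the cell surface, was counted at 3.02, 8.58, 8.82 and 15.3 CPM in WT, where p52Ki had 48.8, 35.8, 34.2, 26.5 and 40.0 CPM. Every p52Ki library was above WT replicate 4, the highest of WT (log2 fold change 2.05 ± 0.43, edgeR adjusted p = 0.0152). Trim30a (chromosome 7, 104409025 to 104465193), a negative regulator of Toll-like receptor signalling, was counted at 59.7, 75.7, 30.1 and 74.1 CPM in WT, where p52Ki had 163, 146, 181, 145 and 181 CPM. The p52Ki libraries were tight and wholly above WT (log2 fold change 1.44 ± 0.25, edgeR adjusted p = 0.00672).

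Samd9l (chromosome 6, 3372257 to 3399572), a growth-restraining antiviral factor, was counted at 77.6, 112, 63.3 and 128 CPM in WT, where p52Ki had 335, 195, 289, 164 and 147 CPM. The p52Ki libraries lay above WT but spread widely, and the log2 fold change was 1.25 ± 0.29 (edgeR adjusted p = 0.0221). Leaving out WT replicate 1 or 3, or p52Ki replicate 1 or 3, ended this call (highest adjusted p = 0.0626). Cmpk2 (chromosome 12, 26469204 to 26479837), a mitochondrial nucleotide kinase, gave 0, 15.2, 6.83 and 4.38 CPM in order of replicate for WT, compared with 99.0, 53.3, 49.6, 43.5 and 44.8 CPM for p52Ki. Replicate 1 stood far above the other p52Ki libraries, which themselves lay above WT (log2 fold change 3.13 ± 0.82, edgeR adjusted p = 0.0349). Leaving out any 1 library other than WT replicate 1 or 2 or p52Ki replicate 4 ended this call (highest adjusted p = 0.0929), and without WT replicate 2 the log2 fold change was 3.96. Its neighbour Rsad2, the gene of viperin, lies on the same stretch of chromosome 12 (26442746 to 26456452) and fell under the edgeR filter. Rsad2 had 0 counts in WT but 4.94, 0, 4.84, 3.22 and 0.652 CPM across p52Ki, a mean 26.8-fold over the floor, with 1 p52Ki library also at 0. Isg20, an exonuclease, and Eif2ak2, which encodes PKR, the kinase that stops translation on double-stranded RNA, overlapped between the genotypes. They were at 28.5 ± 6.97 and 36.5 ± 15.3 CPM and at 14.5 ± 15.8 and 34.7 ± 10.5 CPM (log2 fold changes 0.35 and 1.26, edgeR adjusted p = 0.619 and 0.238). WT replicate 3, at 38.0 CPM of Eif2ak2, stood apart from the other WT libraries. Without it Eif2ak2 passed (edgeR adjusted p = 0.0122, and 0.0122 to 0.403 over its alternatives, of which 1 of 19 passed).

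Of the 6 genes of ISG15 conjugation and ADP-ribosylation, 0 passed with edgeR, and 2 (Usp18 and Parp9) had an unadjusted p under 0.05. Of these 6, DESeq2 called Usp18 alone. Isg15, the ubiquitin-like protein itself, measured 0.525, 0.553, 1.71 and 3.05 CPM across the WT libraries, against 4.36, 4.76, 2.58, 3.22 and 2.39 CPM across those of p52Ki. It was low in both genotypes and overlapped (log2 fold change 1.24 ± 0.85, edgeR adjusted p = 0.46). Usp18, which removes ISG15 and shuts off the receptor, measured 14.8, 0.138, 7.54 and 7.96 CPM across the WT libraries, against 52.4, 33.7, 32.5, 34.9 and 45.2 CPM across those of p52Ki. The genotypes did not overlap, but the WT values ran from 1 count to 14.8 CPM, and the log2 fold change, 2.38 ± 0.72, missed the threshold (edgeR adjusted p = 0.0662). Without WT replicate 2 it passed (edgeR adjusted p = 0.0145, and 0.00611 to 0.154 over its alternatives, of which 6 of 19 passed). Herc6, the mouse ligase for ISG15, was at 12.9 ± 3.91 and 12.5 ± 5.51 CPM, with a log2 fold change near 0 (-0.05 ± 0.46, edgeR adjusted p = 0.973) whose sign turned without single libraries. Parp9 and its partner Dtx3l lie head to head on chromosome 16 and overlap there. The counting was not stated to use strand, so reads from the shared stretch cannot be told apart. Parp9 gave 56.3, 37.8, 24.9 and 52.3 CPM in order of replicate for WT, compared with 87.1, 48.5, 46.8, 84.4 and 74.1 CPM for p52Ki. Parp14, beside them, measured 18.4, 73.3, 26.4 and 33.0 CPM across the WT libraries, against 74.2, 58.0, 59.9, 43.8 and 77.6 CPM across those of p52Ki. Both overlapped between the genotypes, as did Dtx3l at 36.8 ± 14.4 and 55.6 ± 26.7 CPM. Their log2 fold changes, 0.67, 0.73 and 0.60, missed the threshold (edgeR adjusted p = 0.22, 0.289 and 0.481). Without WT replicate 2, which held the most Parp14 of WT, Parp14 passed (log2 fold change 1.27, edgeR adjusted p = 0.0309, and 0.0309 to 0.497 over its alternatives, of which 1 of 19 passed).

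Of the 6 remaining genes, Xaf1 passed. Xaf1 (chromosome 11, 72301629 to 72313733), a gene that favours cell death by opposing an apoptosis inhibitor, measured 3.41, 14.4, 22.9 and 5.57 CPM across the WT libraries, against 59.7, 48.9, 36.98, 35.1 and 80.2 CPM across those of p52Ki. The lowest p52Ki library lay above the highest WT library (log2 fold change 2.17 ± 0.53, edgeR adjusted p = 0.0256). Leaving out WT replicate 4, or p52Ki replicate 1 or 5, ended this call (highest adjusted p = 0.0652), and without WT replicate 3 the log2 fold change was 2.76. Rtp4, a Golgi chaperone, was counted at 3.28, 4.70, 2.56 and 15.4 CPM in WT, where p52Ki had 27.0, 19.2, 16.8, 18.7 and 30.2 CPM. WT replicate 4 came close to the lowest p52Ki library, and the log2 fold change, 1.78 ± 0.56, missed the threshold (edgeR adjusted p = 0.0732). Without that WT library it passed (edgeR adjusted p = 0.0115, and 0.0104 to 0.157 over its alternatives, of which 4 of 19 passed). Ifi27, a small protein of membranes, gave 38.2, 25.6, 61.3 and 36.5 CPM in order of replicate for WT, compared with 88.1, 75.7, 42.5, 98.1 and 118 CPM for p52Ki. It overlapped through p52Ki replicate 3 and WT replicate 3 and did not pass (log2 fold change 1.06 ± 0.32, edgeR adjusted p = 0.067). It passed when either of those libraries was left out (edgeR adjusted p = 0.0339 and 0.0381, and 0.0125 to 0.254 over its alternatives, of which 4 of 19 passed). Ifi35, which shares 16.8% of its exonic bases with the antisense gene Gm11626, measured 81.0, 75.4, 135 and 106 CPM across the WT libraries, against 133, 133, 141, 131 and 153 CPM across those of p52Ki. WT replicate 3 lay among the p52Ki libraries, and the gene did not pass (log2 fold change 0.48 ± 0.19, edgeR adjusted p = 0.159). Without that library it passed (edgeR adjusted p = 0.0489, and 0.0489 to 0.322 over its alternatives, of which 1 of 19 passed). Lgals3bp, a secreted glycoprotein, ran from 0 to 14.3 CPM in WT and from 11.3 to 32.7 CPM in p52Ki, without passing (edgeR adjusted p = 0.299). Ifi44 fell under the edgeR filter. It had 0 counts in WT but 0, 3.88, 3.23, 1.23 and 2.82 CPM across p52Ki, a mean 21.9-fold over the floor.

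**Figure D4:**
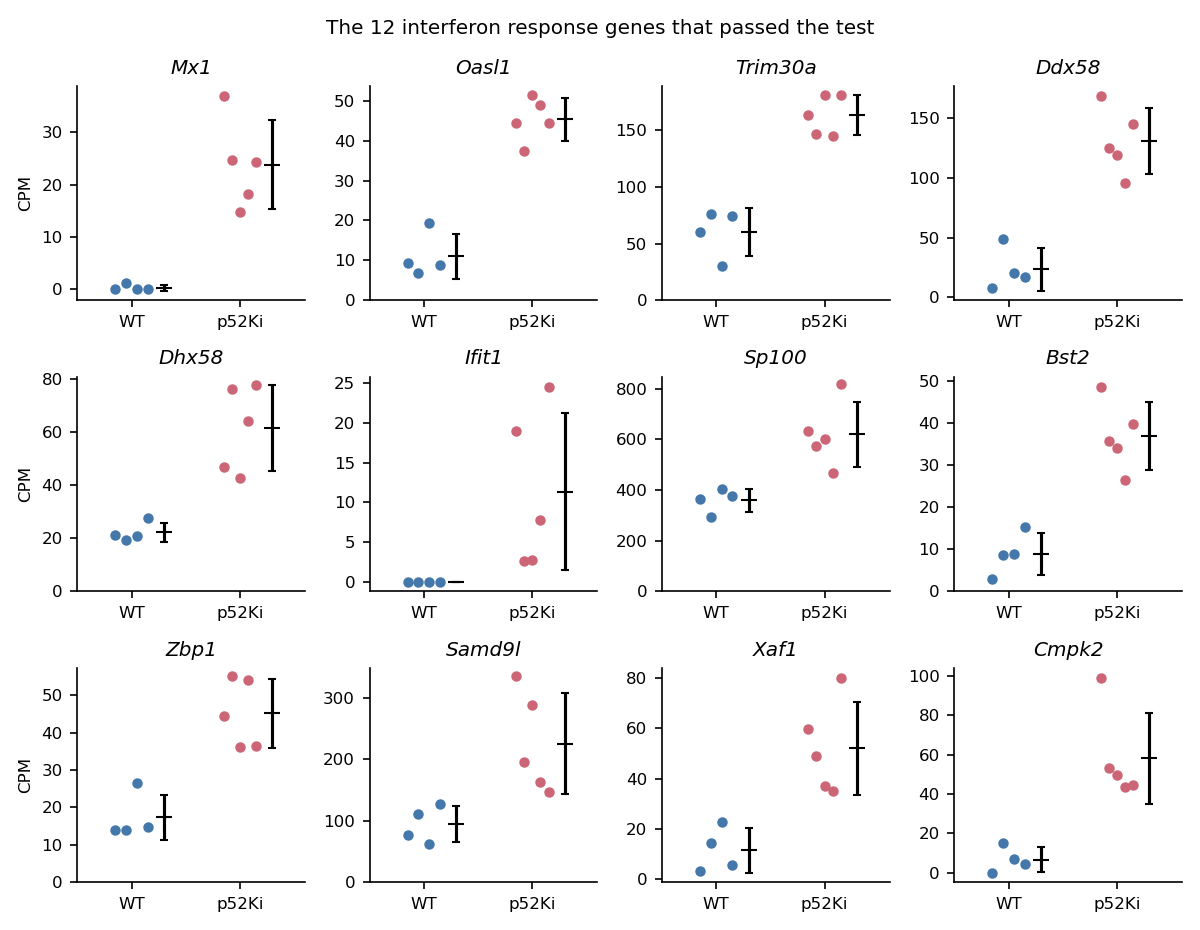
CPM of the 12 genes that passed the test, with 1 point per library (blue WT, n = 4; red p52Ki, n = 5) and the mean ± SD in black, on axes that start at or just under 0. In each panel the lowest p52Ki library lies above the highest WT library.

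Single libraries carried different genes. Within p52Ki, replicate 5 held the highest value for 17 of the 41 genes and replicate 1 for 11, while replicate 3 held the lowest for 17. Within WT, replicate 1 held the lowest value, ties at 0 included, for 24 genes and the highest for 5, among them Oas3 and Oasl2. WT replicate 2 held all of the WT counts of Mx1, Ifit3 and Ifit3b, WT replicate 3 those of Oas1g and nearly all of Oas1a, and WT replicate 4 most of Mx2. No WT library was thus high for all of the scarce genes. The coefficient of variation between libraries had a median of 0.536 in WT and 0.302 in p52Ki over the 37 genes tested, beside 0.361 and 0.341 over all genes tested. It falls as level rises. For all genes in WT it was 0.846 under a mean log2 CPM of 3, 0.429 from 3 to 5 and 0.226 at 5 or above. Of the 37, 13 were under the filter level in at least 1 WT library, a selection that can raise the WT value. No conclusion is drawn from the medians.

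ISGF3 and the IRF proteins bind an element whose core reads GAAA, any 2 bases, GAAA. In RefSeq promoters of build GRCm38.p6, 31 of the 41 genes have an entry, and the 250 bases before each start were searched on both strands, with overlapping matches counted. The core occurs in 11 of these 31 genes (35.5%) and in 936 of all 27025 genes of that table (3.46%). The 11 are Bst2, Ifit1, Ifit3, Ifit3b, Isg15, Oas1a, Oas1g, Oas3, Rsad2, Stat2 and Trim30a. Dhx58, Ifi27, Mx1, Mx2, Oas2, Parp14, Parp9, Rtp4, Usp18 and Zbp1 have no entry. The stretches around the core are shown for Ifit1, Bst2 and Trim30a, which rose in p52Ki, for Isg15 and Oas1a, which did not pass, and for Stat2, with a log2 fold change near 0. They read 5′ to 3′ on the gene's strand, end before the start, and carry the core or its reverse complement in capitals.
Ifit1 (chr19:34640760-34640838, plus strand): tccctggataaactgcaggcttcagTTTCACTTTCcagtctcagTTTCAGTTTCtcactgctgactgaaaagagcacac
Bst2 (chr8:71537562-71537627, minus strand): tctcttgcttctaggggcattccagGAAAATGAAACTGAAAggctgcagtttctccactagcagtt
Trim30a (chr7:104465195-104465254, minus strand): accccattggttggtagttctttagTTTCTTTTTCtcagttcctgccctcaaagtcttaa
Isg15 (chr4:156200850-156200921, minus strand): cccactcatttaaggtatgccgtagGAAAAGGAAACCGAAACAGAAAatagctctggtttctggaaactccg
Oas1a (chr5:120907526-120907570, minus strand): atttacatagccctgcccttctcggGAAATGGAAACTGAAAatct
Stat2 (chr10:128270251-128270310, plus strand): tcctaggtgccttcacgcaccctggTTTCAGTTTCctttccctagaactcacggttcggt
Ifit1 has the core in its reverse form at both places, Bst2 and Oas1a have a pair that overlap and Isg15 a chain of 3. The core nearest the start lies 85 bases before it in Ifit1, 124 in Bst2, 36 in Trim30a, 66 in Isg15, 14 in Oas1a and 222 in Stat2. The stretch of 94 bases around the cores of Ifit3 is the same, letter for letter, in Ifit3b. By result, 3 of the 8 tested genes with it were higher, 6 of 19 without it, and 3 of 10 with no entry. A match is a description of the sequence, and no match says only that these letters are not in this window.

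Other genes of the pathway came from lists that leave out the 41, and 10 of 73 tested were higher and 1 lower, beside 4.49% and 4.04% of all genes. A list in which 1 of 13 or 14 genes was higher is near that share. Among 17 interferon genes, 14 had 0 counts in all 9 libraries, among them Ifnb1 and every interferon alpha gene listed. By counting error alone, this allows up to 0.102 CPM each over the summed WT libraries and 0.1004 CPM over those of p52Ki. These bounds leave out the scatter among libraries, so a transcript could be higher than this and still be missed. Ifng had 2 counts in WT and 35 in p52Ki, Ifnk 20 counts, all in p52Ki replicate 1, and Ifnz 1 count, so none could be tested. Of 12 receptor and JAK-STAT genes, 2 were higher. Ifnar1 was at 72.9 ± 14.5 and 129 ± 32.3 CPM (log2 fold change 0.82 ± 0.22, edgeR adjusted p = 0.0397), a call that ended when any 1 library other than p52Ki replicate 4 was left out (highest adjusted p = 0.0929). Ifngr2, a chain of the interferon gamma receptor, was at 35.1 ± 11.9 and 77.2 ± 9.60 CPM (log2 fold change 1.14 ± 0.26, edgeR adjusted p = 0.0195) and lost its call without WT replicate 1 (adjusted p = 0.0534). The most counted of this list, Jak1, Irf5 and Stat3 by mean CPM, did not pass (edgeR adjusted p = 0.311, 0.251 and 0.867).

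Of 13 tested genes of the relay from nucleic acid sensors to interferon, Unc93b1 alone was higher. Unc93b1, which carries the nucleic acid Toll-like receptors to endosomes, stood at 810.5, 1001, 937 and 804 CPM in WT and 1613, 1589.5, 1645, 1413 and 1559 CPM in p52Ki. The groups were tight and far apart (log2 fold change 0.82 ± 0.11, edgeR adjusted p = 0.00249). Tank and Tmem173, the next most counted, did not pass (edgeR adjusted p = 0.839 and 0.972). Of 14 tested negative regulators, Irf2bp2 was higher and Rnaseh2b lower, with log2 fold changes of 1.28 ± 0.30 and -0.97 ± 0.23 (edgeR adjusted p = 0.0229 and 0.025). The calls of both were lost when WT replicate 1, 3 or 4, or p52Ki replicate 1 or 3, was left out (adjusted p up to 0.0623 and 0.0889). Ptpn6, Samhd1 and Ptpn1, the most counted, did not pass (edgeR adjusted p = 0.22, 0.919 and 0.424).

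Of 34 tested genes that interferon also induces, 6 were higher and 0 lower, with a median log2 fold change of 0.45 (edgeR). Slfn2, which restrains lymphocyte growth, was at 116 ± 28.4 and 260.0 ± 42.7 CPM, Ms4a4c at 35.3 ± 4.35 and 90.5 ± 19.8 CPM and Ly6e, a surface protein, at 1303 ± 291 and 2439.6 ± 297 CPM. Shisa5 was at 389 ± 40.4 and 748 ± 49.8 CPM, and these 4 kept their calls whichever library was left out (edgeR adjusted p = 0.00592, 0.00494, 0.00672 and 0.00179 with all 9). Slfn8 had a log2 fold change of 2.48 ± 0.59 (edgeR adjusted p = 0.0235) and failed to pass when WT replicate 3 or 4, or p52Ki replicate 5, was left out, at adjusted p up to 0.0556. Pml, the core protein of the bodies that hold SP100, stood at 0.131, 75.5, 15.5 and 41.4 CPM in WT and 277, 277, 309.9, 171 and 388 CPM in p52Ki. WT was scattered down to 1 count, and the call (log2 fold change 3.10 ± 0.84, edgeR adjusted p = 0.0415) ended when any 1 library other than WT replicate 1 or 2 or p52Ki replicate 4 was left out (highest adjusted p = 0.0999). Without WT replicate 2 the log2 fold change of Pml was 3.90. Apobec3 and Psmb8, the most counted beside Ly6e, did not pass (edgeR adjusted p = 0.923 and 0.397).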

How the data were processed

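RNA of spleen B cells was made into cDNA by the SMARTSeq v2 protocol and Nextera XT and sequenced in pairs, per the labels' protocols, a design without molecular identifiers or a strand mark. The authors deposited raw counts per gene and a table of log2 CPM, and the submitters' processing notes name HISAT2 2.1.0, SAMtools 1.8, featureCounts of Subread 1.6.2 and GRCm38. The deposited log2 values equal edgeR's log2 CPM with a prior count of 2. Gene positions are from GENCODE M21, to which all 55536 identifiers matched.

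The counts were tested with edgeR 4.0.16 (R 4.3.3): filterByExpr, TMM scaling, robust quasi-likelihood fit of WT and p52Ki, and Benjamini-Hochberg adjustment over the 12849 genes kept. The SE is the absolute log2 fold change over the root of F. CPM use TMM-scaled library sizes, and floors are 3 counts over a genotype's summed libraries. Intervals cover counting error only, and a ratio to a floor leaves out the scatter among libraries. Alternatives used DESeq2 1.42.0, limma 3.58.1 (trend and voom), other filters and scalings, no immunoglobulin or T cell receptor genes, a GC and length correction, a replicate block and each library left out; a fit on counts thinned to equal depth was added after seeing the data. The 41 genes and the lists were chosen with earlier results of these data known. Values in each library were to be given for genes that passed, for those with 0 counts in 1 genotype and for the 2 of highest CPM in each role; those of the other genes were added after they were seen. Pathway genes are named where they passed or are among the 3 highest of their list.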

Additional observations from a re-analysis of the deposited data

Results flagged for a closer look

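In 9 of 79 sets of library values checked, 1 library stood far from the others of its genotype by Dixon's gap test. The test's rate of 1 in 20, or 3.95 of 79, holds for normally distributed values in independent sets. The sets here share the same libraries. For Ifit3, Ifit3b, Mx1 and Oas1g the other WT libraries were at 0, where any count is flagged. No conclusion is thus drawn from 9 beside 3.95. Of the 9, 8 are high values in WT. WT replicate 2 was alone in holding Ifit3 at 7.47 CPM, Ifit3b at 0.138 CPM (1 count) and Mx1 at 1.11 CPM (8 counts). WT replicate 3 was far the highest of WT for Oas1a at 19.3 CPM, Oas1g at 0.853 CPM (6 counts), Zbp1 at 26.4 CPM and Eif2ak2 at 38.0 CPM. In WT replicate 4, Rtp4 stood at 15.4 CPM, with the other WT libraries from 2.56 to 4.70 CPM. In p52Ki replicate 1, Cmpk2 stood at 99.0 CPM, with the other p52Ki libraries from 43.5 to 53.3 CPM.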

How the results depend on the processing

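DESeq2's test called 1217 genes higher and 796 lower, 19 of the 41 interferon response genes and 17 of the other pathway genes higher. Limma-trend called 21 of the 37 that the log2 table holds. With 1 library left out, genes called higher ranged from 344 to 551 and lower from 262 to 557, interferon response genes from 9 (without p52Ki replicate 1) to 16 (without WT replicate 2), and pathway genes lower from 0 to 1. With a replicate block on numbers 1 to 4, 84 genes were higher and 24 lower, with 1 of the 41 (Oasl1) and 2 and 0 other pathway genes. Same-numbered libraries did not deviate together (correlations -0.0547, -0.0321, 0.0095 and -0.0054), and no p52Ki library of numbers 1 to 4 correlated best with its own number. What the numbers stand for is not in the labels used here. Such correlations cannot show whether same-numbered libraries were handled together, so a pairing by number was not settled. The block fit leaves out p52Ki replicate 5. Log2 fold changes changed sign for Oas3, to 0.59 by limma-trend, 1.18 by voom, 0.63 with the replicate block and 0.69 without WT replicate 1, with a range of -1.09 to 0.69 over fits that lack 1 library. Herc6 turned to 0.036 with thinned counts and ranged from -0.23 to 0.18 in fits lacking 1 library, above 0 in 4 of 9. The cause was not tested. In the fits run, which held 33 to 41 of the interferon response genes, 0 of these were called lower. SMARTSeq amplification and totals from 4492160 to 7937579 counts limit what can be said of genes with few counts, such as Ifit3b, Oas1g, Rsad2 and Ifi44.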
